A study of Mus musculus with 8 samples.

Results

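The genes described here encode the actins, myosins and tubulins and the proteins that build and bind their filaments. They are the protein-coding rows of the gene count table that hold 8 counts and whose symbol belongs to the actin, actinin, myosin, myosin light chain and its kinases, tubulin, tropomyosin, villin, ezrin-radixin-moesin, filamin, transgelin, Arp2/3, calponin, plastin or thymosin names. This choice gave 51 genes of the 35880 rows with 8 counts, 12286 of which are protein-coding. A further 67 genes with such names lie in rows that hold 10 values under 8 library names and were not analysed here, among them Vil1, Rdx, Acta2, Myh10, Tpm1, Tpm4, Tuba1b and Tuba1c. The kidneys were those of wild-type mice, male C57/BL6J in the study's methods, with no age given in the sources used here. Control mice received saline by intraperitoneal injection and the treated mice received cisplatin at 23 mg/kg by the same route, and kidneys were collected after 72 h. Bulk RNA-seq of 4 control kidneys (numbered 1, 2, 3 and 5 in the labels) and 4 cisplatin-treated kidneys (1, 3, 4 and 6) was compared. Each library is taken as 1 mouse, and p-values measure the spread between these libraries.

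Cisplatin is a platinum drug that injures the proximal tubule, the part of the nephron that reabsorbs most of the filtrate. Cells of this tubule carry a brush border, a dense array of microvilli in which actin bundles are held together by villin, espin and plastins and tied to the membrane by ezrin and by unconventional myosins. Stress fibres are contractile cables of actin, alpha-actinin, tropomyosin, filamin and non-muscle myosin II that run to focal adhesions. Microtubules are polymers of alpha- and beta-tubulin that start from gamma-tubulin. The comparison of the cisplatin-treated with the control kidneys asks how the transcripts of these structures differ, with the brush border set against the stress fibre.

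Counts per library summed to between 10953338 and 16701599 over the rows with 8 counts, and 3 counts were at most 0.274 CPM, the usual count scaled to sequencing depth. The libraries stood apart in a way the treatment does not explain. On the second principal component (16% of the variance, against 73.6% for the first, which parted the treatments), control 5 and cisplatin 4 and 6 lay away from the other 5, and they are called the second and first library set here. Control 5 and cisplatin 4 and 6 lay at -29.3, -34.7 and -33.6. Within the first set, controls 1 to 3 lay at 6.6 to 9.92, and cisplatin 1 and 3 lay apart from them, at 35.2 and 38.1. The sets come from these expression values and not from the labels, so p-values of fits that use them are not independent of that choice. Kdm5d and Eif2s3y, Y-linked genes, had 274 to 576 and 541 to 1333 counts in 6 libraries, but 2 and 3 counts in the library labelled cisplatin 1 and 0 counts each in the library labelled cisplatin 3, which goes against the male mice of the methods. The members' counts are therefore given with and without these 2 libraries. Both belong to the first set and are its only cisplatin libraries, so leaving them out also leaves only second-set libraries in the cisplatin group. Within that group, the library set and the lack of Y-linked counts cannot be told apart. Expression is given as CPM with library sizes scaled by TMM, edgeR's trimmed mean, always in the order control 1, 2, 3, 5 and cisplatin 1, 3, 4, 6. A gene was called where edgeR's quasi-likelihood test gave an adjusted p under 0.05 and the log2 fold change was 1 or more in size. In bulk tissue, fewer cells of a type and less RNA per cell cannot be told apart.

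The cytoskeleton genes rose more often than they fell. Of the 51 genes, 42 passed the expression filter, and 17 of these were up-regulated, 4 were down-regulated and 21 were not called. Over the whole table, 9141 genes were tested, with 1754 (19.2%) called higher and 1434 (15.7%) called lower. The 17 and 4 genes make up 40.5% and 9.52% of the 42. The median log2 fold change was 0.79 over the 42 genes and 0.08 over all genes tested. In 21 of the 42 the cisplatin-treated kidneys all lay above the controls, and in 4 all lay below, against 23.7% and 22.5% of all genes. The 4 down-regulated genes were Myo6, Myo15b, Myo1f and Mylk3, and the up-regulated ones lay mostly in the stress fibre and the tubulins, with Arpc1b and Tmsb4x besides. Without cisplatin 1 and 3 the count was 16 up-regulated and 5 down-regulated, and 19 of the 21 called genes were called again. Scaling by the total count in place of TMM raised the median of all genes by 0.57 and gave 29 up-regulated and 2 down-regulated members.

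**Figure D1:**
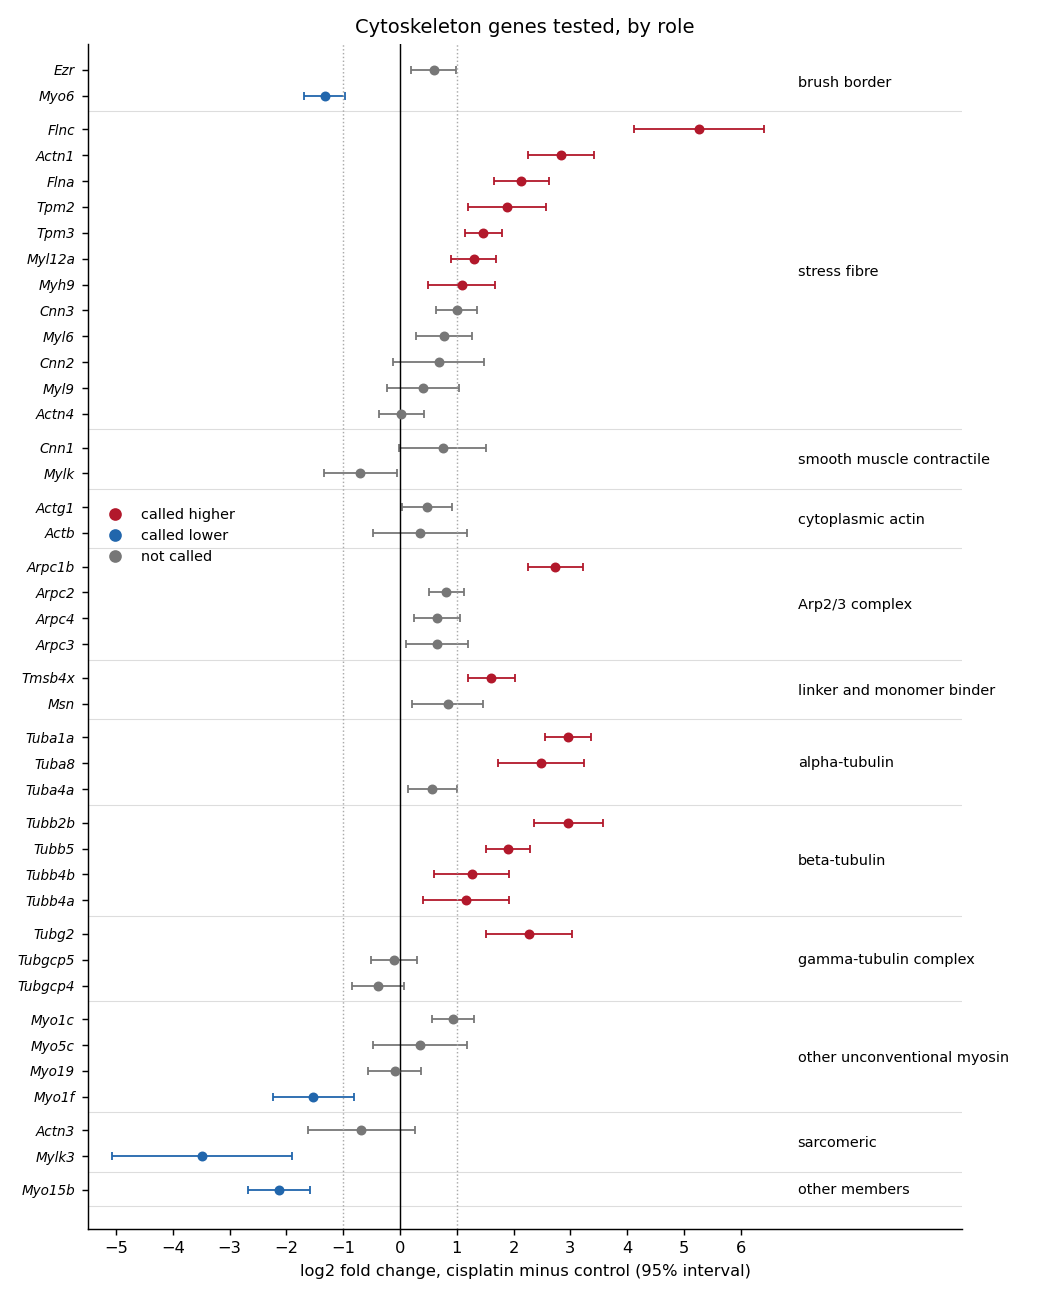
The log2 fold change (cisplatin minus control) with its 95% interval is plotted for 41 of the 42 cytoskeleton genes tested, grouped by role, with dotted lines at -1 and 1. Red points are called higher (16 genes), blue points called lower (4) and grey points not called (21). The 12 stress fibre and 8 tubulin genes lie above 0, and Mylk3, Myo15b, Myo1f and Myo6 lie lowest.

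Of the 12 stress fibre genes tested, 7 (58.3%, against 19.2% of all genes) were up-regulated and none was down-regulated, with a median log2 fold change of 1.19. Flnc, the filamin best known from striated muscle, where it crosslinks actin at the Z-disc, showed the highest log2 fold change of the 42 genes. Flnc (ENSMUSG00000068699, chromosome 6 of GRCm38 from 29433256 to 29461883) had 1.15, 0.957, 0.531 and 2.83 CPM in the controls and 55.7, 82.6, 34.1 and 38.8 CPM after cisplatin. The lowest cisplatin value was far above the highest control, and the log2 fold change was 5.26 (standard error 0.51, edgeR adjusted p = 3.99e-05). Actn1, the alpha-actinin of focal adhesions and stress fibres of non-muscle cells (ENSMUSG00000015143, chromosome 12 from 80167547 to 80260371), had 63.7, 57.8, 50.7 and 43.7 CPM and then 429.6, 552, 277 and 285 CPM. The groups did not overlap, and Actn1 rose by 2.84 on the log2 scale (standard error 0.26, edgeR adjusted p = 2.97e-05). Here too cisplatin 1 and 3 were the higher ones, and without them Actn1 rose by 2.38. Flna, the widely expressed filamin (ENSMUSG00000031328, chromosome X from 74223461 to 74249820), had 151, 166, 113 and 177 CPM in the controls and 793, 690.1, 472 and 707 CPM after cisplatin. Its log2 fold change was 2.13 (standard error 0.22, edgeR adjusted p = 5.46e-05), again with no overlap.

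Both tropomyosins that could be tested, which wind along the actin filament and set which motors bind it, were up-regulated. Tpm2 had 24.3, 29.3, 13.0 and 26.3 CPM in the controls against 104, 59.6, 63.5 and 117 CPM, a log2 fold change of 1.89 (standard error 0.31, edgeR adjusted p = 0.000786). Tpm3 had 246, 229.9, 233 and 201 CPM against 600.5, 675, 577 and 665 CPM, a log2 fold change of 1.47 (standard error 0.15, edgeR adjusted p = 4.86e-05). The groups were apart for both. Over their length, 32.2% of the stretches of 150 bases in the Tpm3 transcript also occur in a transcript of Tpm3-rs7, so reads of Tpm3 could have been shared with that gene.

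Of the 4 non-muscle myosin II genes tested, Myh9 and Myl12a were up-regulated and Myl6 and Myl9 were not called. Myh9, the heavy chain of non-muscle myosin IIA, had 559.6, 578, 569.6 and 465 CPM in the controls and 1367, 1651, 742 and 859 CPM after cisplatin. The groups did not overlap, but the 2 first-set libraries (cisplatin 1 and 3) were well above the 2 of the second set. Myh9 was called at a log2 fold change of 1.09 (standard error 0.26, edgeR adjusted p = 0.0071), and the call was lost without cisplatin 1 (0.99), without cisplatin 3 (0.84) and without both (0.57, edgeR adjusted p = 0.017). Myl12a, a regulatory light chain of this motor, had 201, 196, 193 and 219 CPM against 358, 553, 539 and 534 CPM. Myl12a rose by 1.29 on the log2 scale (standard error 0.18, edgeR adjusted p = 0.000282). It overlaps Myl12b on the same strand over 13.8% of its exonic bases and shares 21.3% of its 150-base stretches with it, and Myl12b was not analysed here.

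The other 5 stress fibre genes were not called. Cnn3, the calponin of non-muscle cells, stood just under the threshold at a log2 fold change of 0.9956 (standard error 0.16, edgeR adjusted p = 0.000716), with 249.6, 289.6, 274 and 308 CPM against 472, 611, 629 and 524 CPM. It passed in 4 of the 8 fits that left out 1 library. Myl6, the essential light chain, had 429, 348, 453 and 631 CPM against 639 to 922 CPM, a log2 fold change of 0.77 (edgeR adjusted p = 0.0146) with no overlap. Cnn2 and Myl9, whose groups overlapped, had log2 fold changes of 0.68 and 0.40 (edgeR adjusted p = 0.141 and 0.265). Cnn2 was 0.34 without cisplatin 1 and 0.24 without cisplatin 1 and 3, and Myl9 was 0.19 without control 3 and 0.22 without cisplatin 6. Actn4, the alpha-actinin abundant in podocytes and tubule cells, had 601, 635, 617 and 726 CPM against 700.0, 801, 526 and 588 CPM. Its log2 fold change was 0.02 with a 95% interval from -0.38 to 0.42, and the sign turned to -0.02 with DESeq2's size factors.

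**Figure D2:**
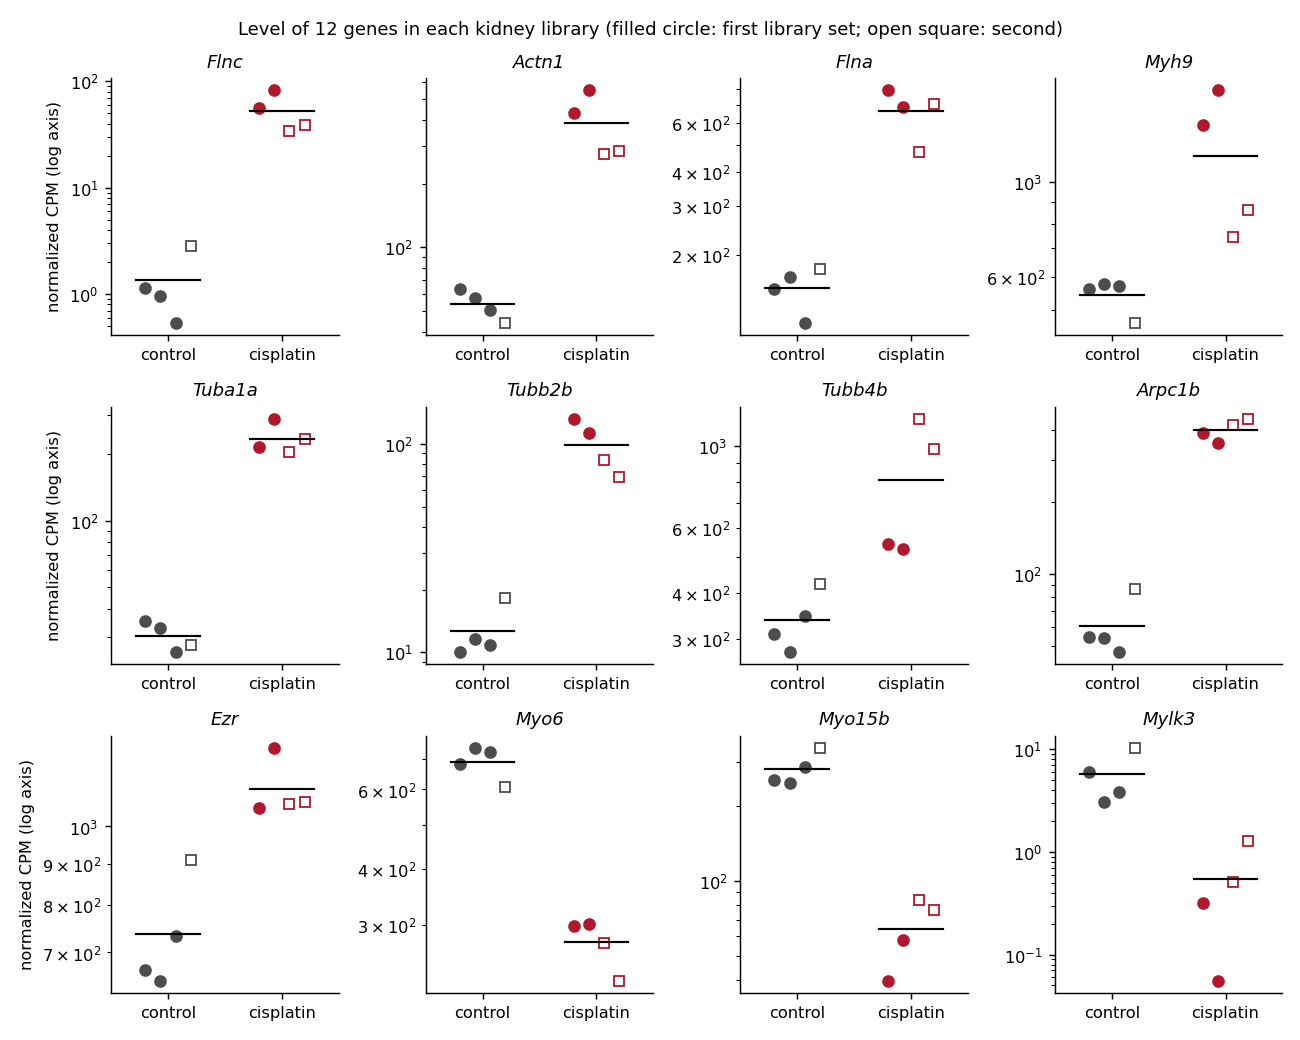
Normalized CPM on a log axis is plotted for 12 genes in each of the 4 control and 4 cisplatin libraries, with a line at each group's mean. Filled circles are libraries of the first set and open squares those of the second (control 5, cisplatin 4 and 6). The groups do not overlap in any of the 12 genes. The cisplatin libraries part by set in Flnc, Actn1, Myh9, Tubb2b, Tubb4b, Arpc1b, Myo6, Myo15b and Mylk3, and not in Flna, Tuba1a and Ezr.

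The pair of non-muscle alpha-actinins shifted against each other. Per kilobase of the gene length in the table, Actn1 made up 10.5%, 9.17%, 8.34% and 6.25% of the summed level of Actn1 and Actn4 in the controls. After cisplatin it made up 40.5%, 43.3%, 36.9% and 34.9%, so the groups were far apart while Actn4 itself was not called. Flnc likewise went from 0.469% to 1.57% of the summed level of Flna and Flnc in the controls to 5.20% to 10.7% after cisplatin. Flna thus remained the main filamin of the pair in every library.

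The CArG box, to which serum response factor binds and which is known from the promoters of many actin and smooth muscle genes, was searched for in the promoter sequences of RefSeq (GRCm38.p6, 250 bases before to 50 bases after each start). It reads as a pair of C, 6 bases that are each A or T, and a pair of G, and its reverse complement has the same form, so 1 pass covers both strands. Of the 51 genes, 47 had a promoter sequence, and 7 of these held a box, against 488 of all 27025 genes in the table (1.81%). The stretches around 4 of the boxes are shown because they lie outside annotated exons and belong to an abundant actin, a calponin and a pair of myosin light chains. Capitals mark the box.
Actg1: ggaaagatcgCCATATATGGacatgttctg
Cnn2: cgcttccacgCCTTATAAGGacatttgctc
Myl9: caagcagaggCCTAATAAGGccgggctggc
Myl3: gagccaatgcCCTTTTATGGccctgtccct
The stretches lie on the minus strand at chr11:120348566-120348595 (Actg1) and on the plus strand at chr10:79988534-79988563 (Cnn2), chr2:156775293-156775322 (Myl9) and chr9:110763583-110763612 (Myl3). The first base of the box is 90, 56, 161 and 85 bases before the start, in that order. The other genes with a box were Myl6, Arpc4 and Myh13. Of the 7, 5 were tested (Actg1, Cnn2, Myl9, Myl6 and Arpc4) and none of the 5 was called. None of the 15 up-regulated or 4 down-regulated members with a promoter sequence held a box in this window, where the box occurred in 1.23% of all up-regulated and 0.992% of all down-regulated genes with a sequence.

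Brush border genes among the 51 were few, and they went apart. Ezrin and myosin VI were the only ones in rows with 8 counts, since Vil1, Pls1, Myo1a, Myo1d and Myo7b lie in the rows with 10 values. Myo6, the motor that walks toward the pointed end of actin and anchors the membrane at the base of the microvilli (ENSMUSG00000033577, chromosome 9 from 80165031 to 80311729), had 684, 742, 725 and 606 CPM in the controls and 298, 303, 274 and 225 CPM after cisplatin. Every cisplatin value lay below every control, and Myo6 fell by 1.33 on the log2 scale (standard error 0.16, edgeR adjusted p = 0.000147). With total-count scaling the log2 fold change was -0.76 and not called. Ezr, which ties actin filaments to the microvillar membrane (ENSMUSG00000052397, chromosome 17 from 6738041 to 6782784), had 665, 645, 733 and 909 CPM and then 1054, 1249, 1066 and 1072 CPM. The groups did not overlap, with the cisplatin kidneys higher, but the log2 fold change of 0.59 (standard error 0.17, edgeR adjusted p = 0.0183) stayed under the threshold. The log2 ratio of Myo6 to Ezr per kilobase went from -1.97 ± 0.34 to -3.90 ± 0.18 (SD, n = 4 each).

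Genes of the brush border outside the 51 fell more clearly. Of 11 scaffold and linker genes tested, 5 (45.45%, against 15.7% of all genes) were down-regulated and none was up-regulated. Their median log2 fold change was -0.93. Pdzk1, the scaffold that gathers transporters under the apical membrane, had 1138, 1067, 999 and 1180.3 CPM in the controls and 56.6, 87.3, 89.2 and 102 CPM after cisplatin, and fell by 3.71 on the log2 scale (standard error 0.22, edgeR adjusted p = 2.72e-06). Calml4 and Cdhr5, a light chain and a cadherin of the links between microvillar tips, had log2 fold changes of -1.91 and -1.37 (edgeR adjusted p = 0.00339 and 0.000155). Eps8, which bundles and caps actin at the tip, had 302 to 337 CPM in the controls and 103 to 149 CPM after cisplatin, a log2 fold change of -1.41 (edgeR adjusted p = 0.000101). Espn, the bundler espin, was not called at -0.69, and neither was Slc9a3r1, the ezrin-binding scaffold, at -0.93 (edgeR adjusted p = 0.035 and 0.00693).

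All 6 membrane enzymes of the brush border that were tested were down-regulated (100%, against 15.7% of all genes), with a median log2 fold change of -3.24. Mep1b and Mep1a, the subunits of the metalloprotease meprin, had log2 fold changes of -6.59 and -3.42. Ggt1, gamma-glutamyltransferase, had 1659 to 2761 CPM in the controls and 101 to 328 CPM after cisplatin (log2 fold change -3.36). Tmem27, collectrin, which carries amino acid transporters to the surface, had a log2 fold change of -3.12 (edgeR adjusted p for the 4 genes at most 0.000727). The 9 proximal tubule markers were also all down-regulated (100%, against 15.7% of all genes), with a median of -4.04. Their summed level was 27090 to 35200 CPM in the controls and 1079 to 2580 CPM after cisplatin, and its part in the brush border values was not tested. Of the 6 distal tubule and collecting duct markers, 3 (50%, against 15.7% of all genes) were down-regulated, with a median of -1.66 over the 6. Of these markers, 1 (16.7%, against 19.2% of all genes) was up-regulated. The log2 fold change of Ezr, 0.59, lay above those of all 6 enzymes.

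**Figure D3:**
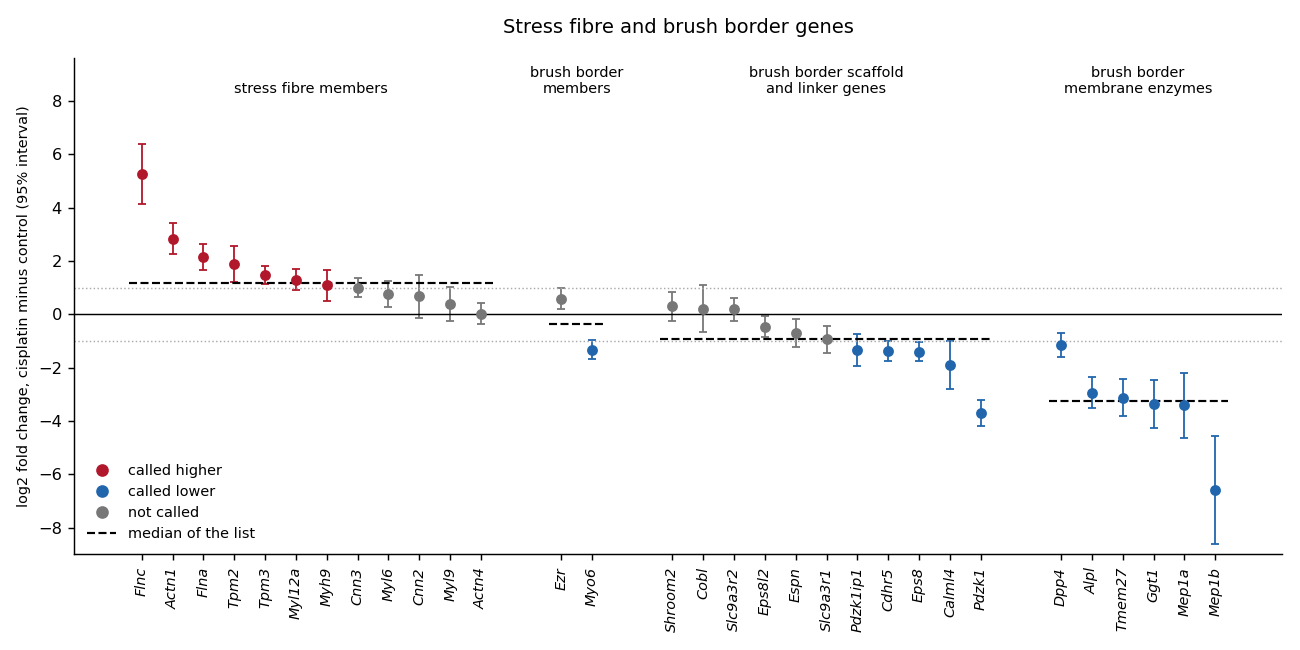
Log2 fold changes with 95% intervals are plotted for the 12 stress fibre genes, the 2 brush border genes, 11 scaffold and linker genes and 6 membrane enzymes of the brush border, with a dashed line at each list's median. The medians step from 1.19 through -0.37 and -0.93 to -3.24, and Ezr lies above 0.

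Set against each other within a library, the brush border sum was lower against the stress fibre sum after cisplatin. The log2 ratio of the summed CPM per kilobase of Ezr and Myo6 to that of the 12 stress fibre genes was -1.16, -1.17, -0.94 and -1.03 in the controls and -1.74, -1.60, -1.63 and -1.79 after cisplatin. The groups did not overlap and differed by -0.62 (-1.07 ± 0.11 against -1.69 ± 0.09, SD, n = 4 each). The stress fibre sum lay between 541.5 and 666 CPM per kilobase in the controls and between 1075 and 1227 after cisplatin, and the brush border sum, most of which was Ezr, lay between 258 and 326.5 in the controls and between 345 and 405 after cisplatin. The size of the difference depended on how the lists were summarised. It was -1.94 with the median of log2(CPM + 0.5) in place of the sum, and -2.36 without Ezr and Myl6, the most abundant gene of each list. Of the 5 fibroblast markers, 3 (60%, against 19.2% of all genes) were up-regulated, namely Col1a1, Col1a2 and Col3a1. The 5 summed to 72.3 to 259 CPM in the controls and 343 to 1586 CPM after cisplatin. The pericyte markers Des and Cspg4 summed to 45.4 to 100.3 CPM and 50.4 to 76.7 CPM. They went apart, at 0.82 and -0.61 (edgeR adjusted p = 0.223 and 0.0209), and neither was called. Control 5 gave the top of the control sum, with 45.4 CPM of Des against 5.84 to 20.5 CPM in the other controls. Without control 5, and in the first set alone, 1 of the 2 was called higher. Without cisplatin 1 and 3 neither was. None of the 4 endothelial markers was called, but all 4 had negative log2 fold changes. Kdr was the lowest of them, at -0.94 (edgeR adjusted p = 0.0152). Without cisplatin 1 and 3, 2 of the 4 endothelial markers were called lower. Without control 5, and in the first set alone, 1 was, and with the library set as a term of the fit none was. The part of the fibroblast, pericyte and endothelial markers in the stress fibre values was not tested.

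Of 8 alpha-, beta- and gamma-tubulin genes tested, 7 (87.5%, against 19.2% of all genes) were up-regulated and none was down-regulated, with a median log2 fold change of 2.09. Tuba4a was not called, and other tubulins, such as Tuba1b, Tuba1c and Tubb2a, were not analysed here. Tuba1a, an alpha-tubulin of growing and neural cells (ENSMUSG00000072235, chromosome 15 from 98949837 to 98953703), had 35.2, 32.8, 25.5 and 27.4 CPM in the controls and 214, 287, 203 and 234 CPM after cisplatin. The groups were far apart and the log2 fold change was 2.96 (standard error 0.18, edgeR adjusted p = 3.13e-06). Of the 150-base stretches of the Tuba1a transcript, 54.7% also occur in Tuba1b, Tuba1c or related transcripts, so its level is uncertain to the extent that reads were shared. Tubb2b, a beta-tubulin best known from developing neurons (ENSMUSG00000045136, chromosome 13 from 34126748 to 34130466), had 10.01, 11.6, 10.8 and 18.3 CPM and then 131, 112, 83.3 and 69.1 CPM. Tubb2b rose by 2.96 on the log2 scale (standard error 0.27, edgeR adjusted p = 3.12e-05), and 20.1% of its stretches are shared, mainly with Tubb2a.

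Tubb5, a beta-tubulin of dividing and many other cells that shares no such stretch with another gene, had 111, 84.1, 91.1 and 96.8 CPM in the controls and 344, 390.3, 282 and 419 CPM after cisplatin. Its log2 fold change was 1.90 (standard error 0.17, edgeR adjusted p = 2.94e-05) with no overlap. Tuba8 and Tubg2 were low, at 1.04 to 2.44 and 0.472 to 1.15 CPM in the controls and 7.30 to 11.7 and 3.08 to 4.69 CPM after cisplatin. They were up-regulated with log2 fold changes of 2.47 and 2.27 (edgeR adjusted p = 0.000294 and 0.000454). Tubb4a, lower still in the treated kidneys at 1.90 to 4.20 CPM, was called at 1.16 (edgeR adjusted p = 0.0179), and not without control 3 (1.01, adjusted p = 0.0598) or without cisplatin 6 (0.99, adjusted p = 0.0501).

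Of the tubulins analysed, those with the highest level per kilobase in the controls were Tubb4b and Tuba4a. Tubb4b, a component of cilia and the highest per kilobase of the beta-tubulins analysed, had 309.9, 275, 345 and 423 CPM in the controls and 542, 526, 1183 and 983 CPM after cisplatin. It was called at a log2 fold change of 1.26 (standard error 0.29, edgeR adjusted p = 0.00576), and the second-set cisplatin kidneys lay well above the first-set ones. The call was lost in the first set alone (0.73), whose only cisplatin libraries are cisplatin 1 and 3. It was also lost when the library set was a term of the fit (0.99). The value without cisplatin 1 and 3 was 1.69. Tuba4a, in the controls the highest per kilobase of the alpha-tubulins analysed, had 300.1, 302, 316 and 363 CPM against 413, 355, 609 and 523 CPM. Tuba4a was not called at 0.57 (standard error 0.19, edgeR adjusted p = 0.0341), and 37.3% of its exonic bases lie opposite Stk16.

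The alpha-tubulin shares did not overlap between the groups for Tuba1a and Tuba4a. Tuba1a made up 13.3% to 19.3% of the alpha-tubulin level per kilobase (Tuba1a, Tuba3a, Tuba4a, Tuba8 and Tubal3) in the controls and 40.1% to 61.2% after cisplatin. Tuba4a went from 79.9% to 85.8% to 36.8% to 58.7%. Among the beta-tubulins Tubb2b went from 2.33% to 3.33% to 4.79% to 13.6%, and its share was higher in the first-set than in the second-set cisplatin kidneys. The summed alpha- and beta-tubulin levels both rose without overlap, from 99.97 to 114 to 234 to 280.5 CPM per kilobase and from 163 to 240.1 to 419.8 to 689. These shares leave out the tubulins in the rows with 10 values. The gamma-tubulin ring genes Tubgcp4 and Tubgcp5 were not called at -0.38 and -0.11 (edgeR adjusted p = 0.146 and 0.642), and with total-count scaling they were 0.19 and 0.46.

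**Figure D4:**
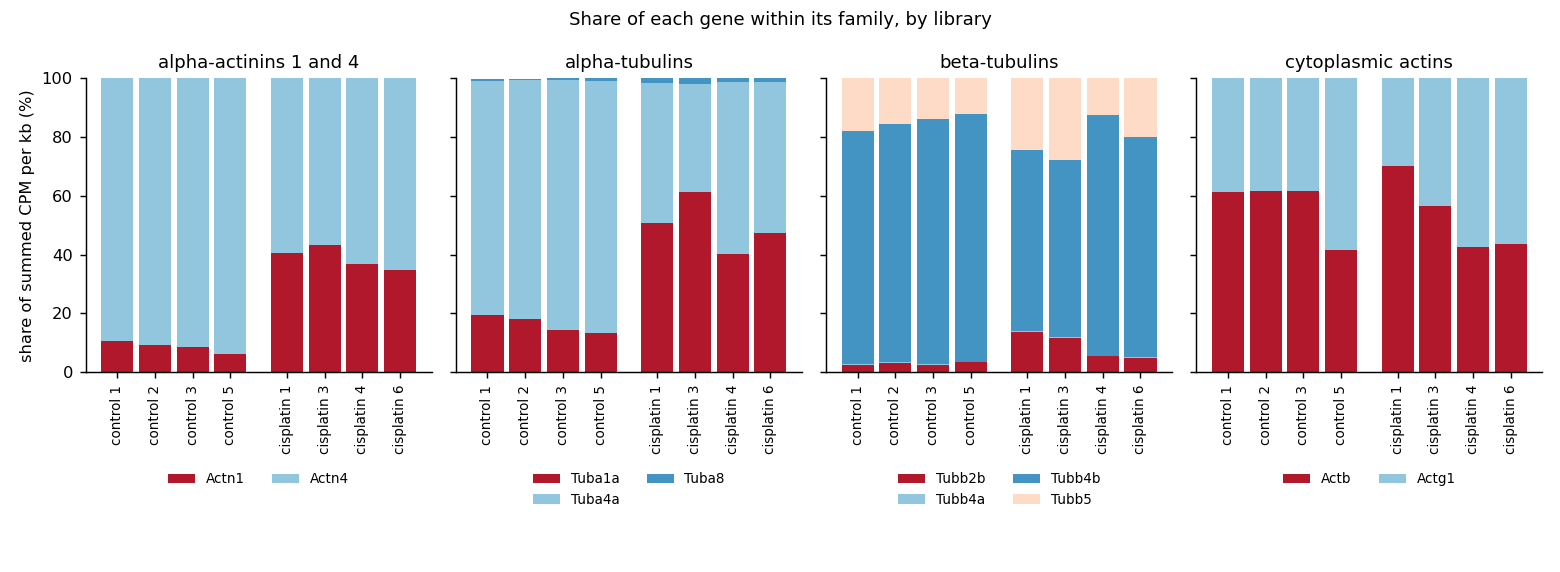
Stacked bars give the share of each gene in the summed CPM per kilobase of its family, in percent, for the 4 control and 4 cisplatin libraries. Actn1 rises from at most 10.5% to at least 34.9% of the alpha-actinins and Tuba1a from at most 19.3% to at least 40.1% of the alpha-tubulins, while the Actb share parts by library set.

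The cytoplasmic actins were not called. They were the 2 most abundant of the 51 genes per kilobase in both groups, with means of 597 (Actb) and 441 (Actg1) CPM per kilobase in the controls. Actb, beta-actin, had 1887, 1869.7, 1726 and 915 CPM in the controls and 3007, 2738, 1096 and 1309 CPM after cisplatin. The groups overlapped, and in both the second-set libraries were the low ones. Its log2 fold change was 0.35 with a 95% interval from -0.48 to 1.18 (standard error 0.37, edgeR adjusted p = 0.464), 0.59 in the first set alone (edgeR adjusted p = 0.00668), 0.56 with the library set as a term (edgeR adjusted p = 0.00519) and -0.41 without cisplatin 1 and 3 (edgeR adjusted p = 0.284). It was called in none of these. With 1 library left out it was 0.15 (control 5), 0.09 (cisplatin 1), 0.14 (cisplatin 3) and 0.55 (cisplatin 4). Actg1, gamma-actin, had 1182, 1157, 1068 and 1284 CPM against 1266, 2083, 1464 and 1674 CPM. Actg1 was not called at 0.47 (standard error 0.20, edgeR adjusted p = 0.0733). The log2 ratio of Actb to Actg1 per kilobase lay between 0.38 and 1.24 in the 5 first-set libraries and between -0.50 and -0.37 in the 3 second-set ones, whatever the treatment. Of the 150-base stretches of Actg1, 43.5% occur in pseudogene transcripts, against 0% of those of Actb.

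**Figure D5:**
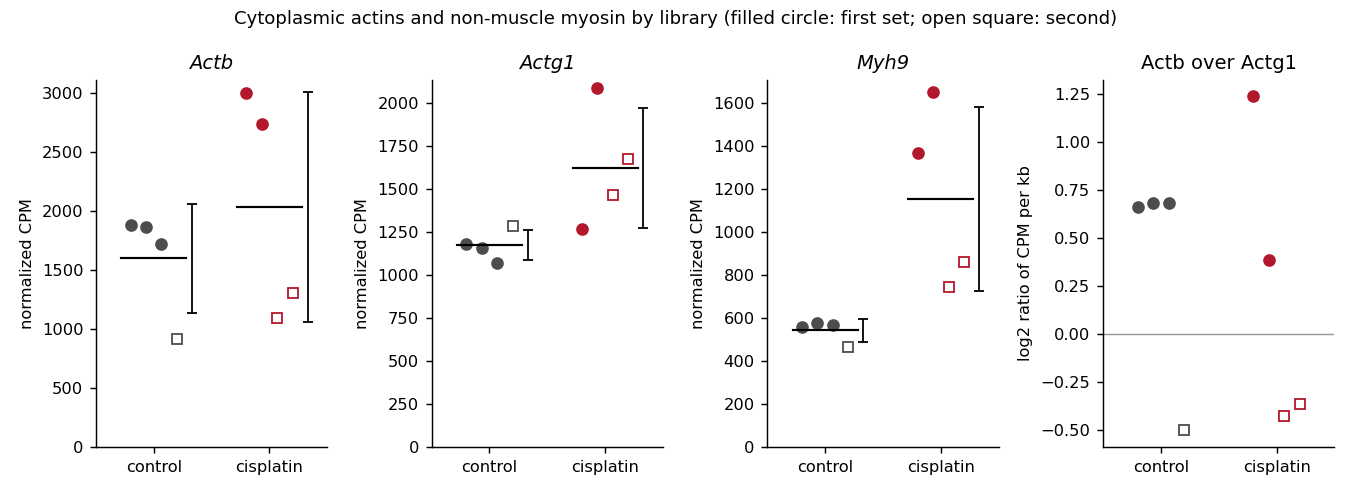
The first 3 panels plot normalized CPM of Actb, Actg1 and Myh9 per library, with the mean as a line and the SD as a bar (n = 4), from 0. The last panel plots the log2 ratio of Actb to Actg1 per kilobase. Open squares are control 5 and cisplatin 4 and 6, and their ratios, -0.50 to -0.37, lie below 0 while the filled circles lie between 0.38 and 1.24.

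Of the 4 genes of Arp2/3, the complex that starts branched actin filaments, 1 (25%, against 19.2% of all genes) was up-regulated. Arpc1b, a beta-propeller subunit with a paralog (Arpc1a, not analysed here), had 54.1, 53.6, 46.9 and 86.3 CPM in the controls and 389.7, 351, 418 and 444 CPM after cisplatin. Arpc1b rose by 2.73 on the log2 scale (standard error 0.22, edgeR adjusted p = 1.36e-05) with no overlap, and 18.2% of its exonic bases lie opposite Pdap1. Arpc2, Arpc3 and Arpc4, the core subunits measured, had log2 fold changes of 0.82, 0.65 and 0.65 (edgeR adjusted p = 0.00111, 0.0486 and 0.0148), and were not called. The log2 ratio of Arpc1b to Arpc2 per kilobase went from -3.46 ± 0.36 to -1.50 ± 0.15 (SD, n = 4 each).

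Tmsb4x, thymosin beta 4, which holds actin monomers in reserve, had 161, 210.2, 148 and 226 CPM in the controls and 609, 512, 527 and 626 CPM after cisplatin. Tmsb4x was up-regulated with no overlap (log2 fold change 1.61, standard error 0.19, edgeR adjusted p = 0.000112). Msn, moesin, the relative of ezrin in endothelial and blood cells, had 416, 391, 393 and 285 CPM against 734, 986, 387 and 548 CPM. The groups overlapped through cisplatin 4, and Msn was not called at 0.84 (standard error 0.28, edgeR adjusted p = 0.0304). It was called without cisplatin 4, at 1.03 (edgeR adjusted p = 0.00867), and was 0.56 without cisplatin 3 (edgeR adjusted p = 0.0791) and 0.33 without cisplatin 1 and 3 (edgeR adjusted p = 0.211).

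Of the myosins outside the stress fibre and the brush border, Myo15b and Myo1f were down-regulated. Myo15b, a myosin of class XV (ENSMUSG00000034427, chromosome 11 from 115858406 to 115892603), had 254, 248, 287 and 342 CPM in the controls and 39.6, 57.8, 84.2 and 76.3 CPM after cisplatin. All cisplatin kidneys lay below all controls, and Myo15b fell by 2.13 on the log2 scale (standard error 0.24, edgeR adjusted p = 0.000108). Myo1f, a class I myosin known from leukocytes, had 5.31, 6.86, 9.02 and 8.81 CPM against 2.64, 3.74, 1.61 and 2.38 CPM. Myo1f was down-regulated (log2 fold change -1.52, standard error 0.32, edgeR adjusted p = 0.00357), but with total-count scaling it was -0.94 and not called. Of the 7 leukocyte markers, 4 (57.1%, against 19.2% of all genes) were up-regulated, namely Itgam, Cd14, S100a8 and S100a9. Only Ptprc was down-regulated (14.3% of the 7, against 15.7% of all genes), at -1.44 (edgeR adjusted p = 0.0102). The summed level of the 7 was 115 to 149 CPM in the controls and 143 to 217 CPM after cisplatin. Its part in the Myo1f value was not tested.

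Myo1c, which tethers membranes to actin, had 229.8, 229.7, 245 and 277 CPM against 506, 549.6, 398 and 417 CPM. The groups did not overlap, but Myo1c missed the threshold at 0.93 (standard error 0.16, edgeR adjusted p = 0.00119). Myo19, the motor on mitochondria, and Myo5c, a myosin V of gland-like epithelia, were not called at -0.10 and 0.35 (edgeR adjusted p = 0.724 and 0.455). Myo19 was 0.48 with total-count scaling, and Myo5c was -0.43 without cisplatin 1 and 3.

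Genes of smooth and striated muscle were low or not called. Mylk, the kinase that switches on smooth muscle and non-muscle myosin II, had 264, 347, 241 and 198 CPM in the controls and 203, 219, 92.1 and 134 CPM after cisplatin. The groups overlapped, and the log2 fold change of -0.70 (standard error 0.28) did not pass, with an edgeR adjusted p of 0.0664. Without cisplatin 1 and 3, it was -1.22 and called. Cnn1, the calponin of smooth muscle, was not called at 0.75 (edgeR adjusted p = 0.0964). Mylk3, the kinase of the cardiac light chain, had 5.93, 3.03, 3.79 and 10.3 CPM against 0.318, 0.055, 0.512 and 1.27 CPM. Mylk3 was down-regulated (log2 fold change -3.48, standard error 0.71, edgeR adjusted p = 0.00286), though the lowest cisplatin value is below the level of 3 counts. Actn3, of fast muscle, was not called at -0.68 (edgeR adjusted p = 0.206).

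The 9 genes that did not pass the filter were near 0 in most libraries. Tubal3, Myh2, Myl10 and Tmsb15a had 0 counts in all 8 libraries, which at a limit of 3 counts allows at most 0.274 CPM. Myh13, Tmsb15b2 and Tuba3a had at most 2 counts in any library. Actn2 and Myl3, of the sarcomere, had 243 and 459 counts in control 5, against 2 to 10 and 2 to 13 counts in the other libraries. Mb and Ttn, markers of striated muscle, were also high in control 5, at a summed 88.9 CPM against 2.31 to 3.83 CPM in the other 7 libraries. The direction of Actn2 and Myl3 between the groups therefore rests on 1 control and is not given.

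Other genes of these pathways were examined from lists. Of 17 genes of actin filament turnover, 2 (11.8%, against 19.2% of all genes) were up-regulated and none down-regulated, with a median log2 fold change of 0.45. Scin, a filament severing protein, had 53.0 to 73.4 CPM in the controls and 96.6 to 279.8 CPM after cisplatin (log2 fold change 1.49, edgeR adjusted p = 0.0055). Cttn, cortactin, which steadies branches made by Arp2/3, had 243 to 321 CPM and 568 to 584 CPM (log2 fold change 1.09, edgeR adjusted p = 0.000284). Cfl1, cofilin, which takes filaments apart, and Pfn1, profilin, which feeds monomers to them, were picked with their values known. They had log2 fold changes of 0.98 and 0.76 (edgeR adjusted p = 0.000569 and 0.00456) with no overlap, and were not called.

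Among genes of focal adhesions, Csrp1 and Vasp, a LIM protein and a filament elongation factor found on stress fibres, had log2 fold changes of 1.86 and 1.61 (edgeR adjusted p = 0.000108 and 2.17e-05). Tln2, a talin that links integrins to actin, had 297 to 434 CPM in the controls and 16.6 to 47.0 CPM after cisplatin, a log2 fold change of -3.49 (edgeR adjusted p = 4.44e-05). Of 12 genes that bind or assemble microtubules, 1 (8.33%) was called in each direction. Of all genes, 19.2% were called higher and 15.7% lower. Map1a was up-regulated at 1.18 (edgeR adjusted p = 0.0209, groups overlapping) and Mapt, tau, down-regulated at -2.12 (edgeR adjusted p = 2.97e-05), with a median of 0.39. Mapt had 296 to 338 CPM in the controls and 54.7 to 93.1 CPM after cisplatin.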

How the data were processed

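Kidney RNA of 4 control and 4 cisplatin-treated mice was sequenced. The authors deposited gene counts that were not normalized, and their processing notes name fastp, HISAT2 and the build GRCm38. The paper and the labels name different library kits, and the counting tool, annotation and strand setting are not given in the sources used here, so reads of overlapping genes on opposite strands may be shared. Rows with 10 values (17835 of 53715) could not be assigned to libraries and were left out, so that totals (10953338 to 16701599) cover part of each library. The 2 unnamed extra columns were not used. Intervals came from the edgeR fit and cover the spread between libraries. The limit of 3 counts covers counting error only.

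The test used edgeR 4.0.16 in R 4.3.3 (filterByExpr, TMM, quasi-likelihood test, Benjamini-Hochberg over 9141 genes), with no covariate. The standard error was the absolute log2 fold change divided by the square root of F. Levels were compared between genes per kilobase of the table's gene length. The procedure was checked on simulated counts. Libraries of a group differed by a chi-square per gene of at least 16. Exon overlaps and shared 150-base stretches came from GENCODE M21, in which 49 of the 51 genes had the same position. The alternatives were DESeq2 1.42.0, other scalings and filters, a test of changes beyond 1 on the log2 scale, the library set as a covariate or alone, the replicate block, and leaving out libraries.

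The members and lists were chosen with earlier results of these data known. Genes named are all brush border and stress fibre genes tested, up to 5 called genes per other role and up to 4 per pathway list with at least 5 CPM in a group, the cytoplasmic actins, the 2 most abundant genes of each tubulin list, Msn and the genes with no test. Tubb4a, Tubg2, Arpc2, Arpc3, Arpc4, Myo1c, Myo5c, Myo19, Mylk, Cnn1, Actn3, Espn, Slc9a3r1 and the cell type markers were named after their values were seen, to account for members or for a list. The values of 1 member and the counts of 1 pathway list are not reported here. Replicate numbers 1 and 3 occur in both groups. Deviations of same-numbered libraries correlated with r = 0.249 and 0.279, within the 0.148 to 0.355 of differently numbered first-set pairs, and the numbers were not treated as pairs.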

Additional observations from a re-analysis of the deposited data

Results flagged for a closer look

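Within a group of 4 libraries, a gene was picked out when the gap from the highest or lowest library to the next, divided by the range of the group, exceeded the 95% critical value of Dixon's test. Among 88 groups (44 genes with at least 1 CPM in a library, 2 groups each) this picked out 8, or 9.09%, where chance gives about 1 in 20. Control 5 was the library in 5 of the 8. It had 99.0 CPM of Arpc4 against 67.1 to 68.3 CPM in the other controls, 915 CPM of Actb against 1726 to 1887 CPM, and 465 CPM of Myh9 against 559.6 to 578 CPM. Control 5 also had 19.1 CPM of Actn2 against 0.16 to 0.607 CPM and 36.1 CPM of Myl3 against 0.443 to 0.834 CPM. Among the cisplatin-treated kidneys, cisplatin 3 had 1249 CPM of Ezr against 1054 to 1073 CPM, cisplatin 1 had 358 CPM of Myl12a against 534 to 553 CPM, and cisplatin 6 had 1.03 CPM of Myl3 against 0.146 to 0.22 CPM. Without control 5 the log2 fold change of Actb was 0.15 and not called, and that of Myh9 was 1.01 and still called.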

How the results depend on the processing

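The counts of up-regulated and down-regulated members, of stress fibre and tubulin genes up-regulated and of brush border genes down-regulated stayed within 1.5 times under every alternative except total-count scaling, which gave 29 up-regulated members, 2 down-regulated and 0 brush border genes down-regulated. The brush border to stress fibre difference of -0.62 was -1.94 by medians and -2.36 without Ezr and Myl6, and -0.65 to -0.57 with 1 library left out. Among the members whose signs were compared, those that turned were not called: Actb (-0.41 without cisplatin 1 and 3), Actn4 (-0.0155 with DESeq2 and -0.0156 with its size factors in edgeR, -0.20 without cisplatin 1 and 3), Myo5c (-0.43 without cisplatin 1 and 3), Myo19 (0.48 with total-count scaling, 0.02 in the first set alone and 0.002 with the library set as a term) and, with total-count scaling, Tubgcp4 and Tubgcp5 (0.19 and 0.46). With 1 library left out, Actn4 ranged from -0.11 to 0.11. DESeq2 called the same 21 members. With the replicate number as a block, which rests on control 1 and 3 against cisplatin 1 and 3, 24 members were called (20 up-regulated, 4 down-regulated), 20 of them shared with the fit without it: Tubb4b was lost, Cnn2, Cnn3, Msn and Myo1c were gained, and Tubgcp5 turned to 0.009. Requiring 10 counts in every library removed Flnc, Mylk3 and Tubg2 from the test, and a test of changes beyond 1 on the log2 scale called 15 members. Over all genes, total-count scaling moved the share of up-regulated among called genes from 55% to 79.8%, and the test against 1 gave 885 up-regulated and 803 down-regulated genes in place of 1754 and 1434. At a limit of 3 counts, levels under 0.274 CPM could not be compared. Except where stated, the cause of these differences was not tested.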

Other observations

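Among the members, the order of levels per kilobase changed with the treatment. In the controls Ezr (224 CPM per kilobase) came next after both cytoplasmic actins, and after cisplatin Tmsb4x did (415 CPM per kilobase). Tuba1a moved from rank 25 to rank 10 and Arpc1b from 27 to 18, while Myo6 moved from 13 to 27 and Myo15b from 21 to 30. Actn4, which was not called, moved from 8 to 13. These ranks are over group means and carry no test.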
